A study of Mus musculus with 8 samples.

Results

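The genes described here build DNA in S phase: they supply deoxynucleotides, prime and copy the template, load the sliding clamp, fire origins and restore chromatin behind the fork. The MCM helicase and licensing genes were kept apart. Of 30 such genes, 28 had a probe set whose single symbol in the platform annotation was that gene, and these 28 genes were measured by 46 of the 22626 mouse probe sets on the array. Chaf1a and Gins2 had none, and 1 Tyms probe set that the annotation shares with a pseudogene was left out. Expression was measured on Affymetrix arrays in whole skin of newborn FVB mice of 4 genotypes, namely pRb-/-;p107-/-, pRb-/-;p107+/+, pRb+/+;p107-/- and pRb+/+, with 2 arrays each. Each array held RNA pooled from 3 animals of a genotype. The labels of the pRb+/+ arrays leave out p107, which is taken here as wild-type. They also do not say what deleted Rb1 in pRb-/- skin or in which cells, and the title of the series speaks of epidermis. The skin was extracted whole, so dermis, muscle and fat are part of each pool, and more cells of a type cannot be told apart from more RNA per cell.

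The retinoblastoma protein pRb and its relative p107 bind E2F transcription factors and hold back the genes that E2F activates. Many enzymes of DNA synthesis are E2F targets: when the pocket proteins are phosphorylated late in G1, or are missing, these genes are released and the cell can enter S phase. In skin, dividing keratinocytes sit in the basal layer of the epidermis and in the matrix of the hair follicle. Dividing cells of other types carry mRNAs of this kind too, so in whole skin these mRNAs are not particular to keratinocytes. p107 is itself encoded by an E2F target, Rbl1.

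Promoters of some of the genes described below are shown first. E2F sites near the start are a known route from pRb and p107 to genes of this kind, and whether they act here was not tested. The windows run from 250 bases before to 50 bases after the annotated start, on the strand of the gene, and come from RefSeq on GRCm38.p6. Capitals mark matches to an E2F motif. Prim1, Rrm1, Uhrf1 and Rfc3 have matches, and Rrm2 and Pcna are shown as genes that rose without one in this window. Uhrf1 and Rfc3 passed in no comparison. Of the other genes that rose with loss of both proteins, Dnmt1 has a match and Fen1 has none, and neither is shown. Prim1 lies at chr10:128014965-128015264 on the plus strand, Rrm1 at chr7:102441445-102441744 on the plus strand, Uhrf1 (the first of 2 annotated starts) at chr17:56303087-56303386 on the plus strand, Rfc3 at chr5:151651159-151651458 on the minus strand, Rrm2 at chr12:24708004-24708303 on the plus strand and Pcna at chr2:132253131-132253430 on the minus strand.
Prim1: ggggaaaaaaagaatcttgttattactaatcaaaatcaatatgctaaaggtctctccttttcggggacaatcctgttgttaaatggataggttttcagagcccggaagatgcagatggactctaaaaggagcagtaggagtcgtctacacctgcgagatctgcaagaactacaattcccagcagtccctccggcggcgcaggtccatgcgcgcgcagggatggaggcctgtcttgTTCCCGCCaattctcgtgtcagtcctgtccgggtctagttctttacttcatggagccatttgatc
Rrm1: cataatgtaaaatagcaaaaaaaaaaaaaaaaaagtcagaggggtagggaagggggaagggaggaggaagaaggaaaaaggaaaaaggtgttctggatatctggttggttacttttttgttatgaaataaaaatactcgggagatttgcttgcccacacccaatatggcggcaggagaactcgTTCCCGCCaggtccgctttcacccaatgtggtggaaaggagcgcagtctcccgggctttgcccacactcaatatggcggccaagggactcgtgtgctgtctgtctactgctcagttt
Uhrf1: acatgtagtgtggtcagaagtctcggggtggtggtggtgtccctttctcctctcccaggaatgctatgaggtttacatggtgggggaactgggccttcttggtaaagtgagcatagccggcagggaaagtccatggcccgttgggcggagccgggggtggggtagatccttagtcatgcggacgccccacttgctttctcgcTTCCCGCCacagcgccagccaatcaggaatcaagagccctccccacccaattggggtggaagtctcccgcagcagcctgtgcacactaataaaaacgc
Rfc3: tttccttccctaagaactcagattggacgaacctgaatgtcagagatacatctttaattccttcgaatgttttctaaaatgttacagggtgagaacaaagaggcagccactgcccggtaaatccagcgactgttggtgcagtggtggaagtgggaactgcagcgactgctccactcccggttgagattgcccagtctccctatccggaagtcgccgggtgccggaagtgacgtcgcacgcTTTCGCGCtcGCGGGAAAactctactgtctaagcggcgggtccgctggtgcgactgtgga
Rrm2: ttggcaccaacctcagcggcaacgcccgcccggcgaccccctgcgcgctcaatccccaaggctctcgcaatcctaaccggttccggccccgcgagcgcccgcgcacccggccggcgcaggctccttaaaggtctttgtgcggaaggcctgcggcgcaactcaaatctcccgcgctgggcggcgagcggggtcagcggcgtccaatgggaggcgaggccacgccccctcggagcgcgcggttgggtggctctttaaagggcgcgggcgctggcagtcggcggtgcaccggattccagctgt
Pcna: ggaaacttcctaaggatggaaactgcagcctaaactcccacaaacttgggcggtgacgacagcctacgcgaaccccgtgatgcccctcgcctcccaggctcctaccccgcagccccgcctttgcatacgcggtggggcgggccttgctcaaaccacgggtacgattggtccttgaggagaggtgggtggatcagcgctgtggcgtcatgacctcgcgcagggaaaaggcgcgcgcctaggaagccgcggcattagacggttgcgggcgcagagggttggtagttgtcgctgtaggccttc

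The motifs searched on both strands were the E2F consensus in its 4 spellings, TTTCCCGC, TTTCGCGC, TTTGCCGC and TTTGGCGC, the extended form GGCGGGAA, and the shorter core GCGGGAA. The core lies inside the extended form, and it also overlaps TTTCCCGC read on the other strand, so matches of these are not independent. Promoter windows were found for 26 of the 30 genes, with 33 annotated starts. The consensus was present for 7 of the 26 genes (26.9%), against 2.6% of all 27025 genes with a window. The extended form was present for 7 genes (26.9%), against 2.52% of all genes, and the core for 10 genes (38.5%), against 5.29%. With any of these motifs there were 13 of 26 genes, namely Cdc7, Chaf1a, Dnmt1, Lig1, Orc1, Pola1, Pold1, Prim1, Rfc3, Rfc4, Rpa2, Rrm1 and Uhrf1, against 6.54% of all genes. The match of Prim1 began 15 bases, that of the first Uhrf1 start 48 bases and that of Rrm1 67 bases before the start. Rfc3 had a consensus match 10 bases before its start and another that began at the start itself. These are matches of letters, and binding was not measured.

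**Figure D1:**
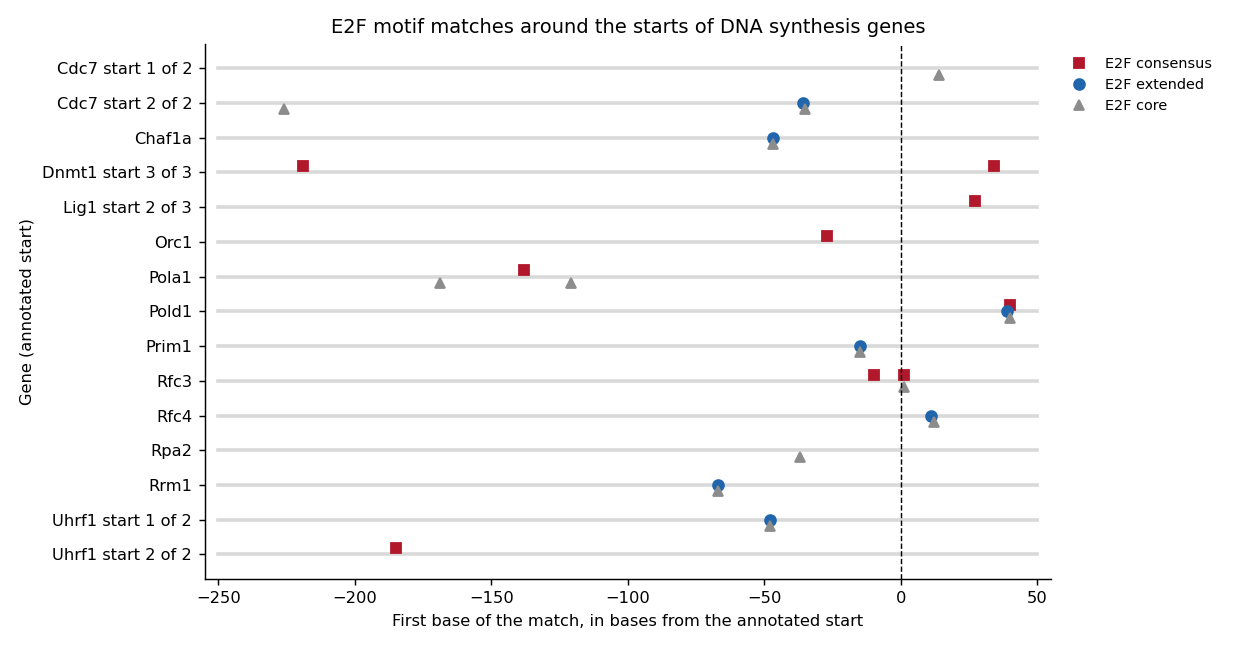
Positions of E2F motif matches, with the first base of each match on the x axis in bases from the annotated start and 1 row per annotated start that has a match. Squares are the consensus, circles the extended form and triangles the core. The matches of Prim1, Rrm1 and the first Uhrf1 start lie 15, 67 and 48 bases before the start.

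The deposited values are standardized scores: every probe set has mean 0 and SD 1 over the 8 arrays, so a score says how an array stands among the 8 and carries neither a level of expression nor a fold change. A difference of 1 is 1 SD of that probe set, no score over 8 arrays can exceed 2.47 in size, and the number of arrays limits the precision. The check of the targeted genes was limited. Rb1 scored -1.56 and -1.28 in pRb-/-;p107-/-, -0.22 and 0.36 in pRb-/-;p107+/+, 0.02 and 0.4 in pRb+/+;p107-/- and 1.21 and 1.07 in pRb+/+ skin, lowest where both proteins are lost. The probe set of Rbl1 with the smaller spread, 1424156_at, scored -0.31 and 0.31 in pRb-/-;p107-/-, 1.3 and 1.14 in pRb-/-;p107+/+, -1.51 and -1.22 in pRb+/+;p107-/- and 0.08 and 0.21 in pRb+/+ skin, so it was not lower on both arrays lacking pRb and p107 than on both pRb+/+ arrays. The other Rbl1 probe set, 1425166_at, scored -0.13 and -0.2 in pRb-/-;p107-/-, 1.4 and -0.02 in pRb-/-;p107+/+, -1.53 and -1.12 in pRb+/+;p107-/- and 0.58 and 1.03 in pRb+/+ skin, and by it all 4 p107-/- arrays lay below both pRb+/+ arrays. The array's own controls differed between genotypes too. The 3 Gapdh controls averaged 0.04 and -0.03 in pRb-/-;p107-/-, 0.84 and 0.77 in pRb-/-;p107+/+, 0.8 and 0.57 in pRb+/+;p107-/- and -1.47 and -1.52 in pRb+/+ skin. The 24 poly-A controls ranged from -0.96 to -0.55 on the 4 p107-/- arrays and from 0.19 to 1.38 on the other 4. The 18 hybridization controls ranged from -0.8 to -0.32 on the 4 p107-/- arrays and from -0.03 to 2.05 on the other 4. The 3 beta-actin controls were lowest where both proteins are lost, at -1.0 and -1.08. The Gapdh controls, like the median of the members given next, were lowest on the pRb+/+ arrays, while the other controls were not. The part of any of these controls in the results was not tested.

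By the median of all 46 probe sets, the DNA synthesis genes were highest in skin that lacks both proteins and lowest in pRb+/+ skin. The median score of the 46 was 1.05 and 0.59 where both proteins are lost, 0.29 and -0.11 where pRb alone is lost, -0.33 and -0.14 where p107 alone is lost, and -1.07 and -0.63 in pRb+/+ skin. By this median the arrays lacking both proteins lay above all others and the pRb+/+ arrays below all others. Over all mouse probe sets the array medians ran only from -0.25 to 0.22. Of the 46 probe sets, 28 had their highest genotype mean where both proteins are lost (60.9%, against 21.7% of all mouse probe sets). The highest mean was where pRb alone is lost for 10 (21.7%, near the 23.7% of all). It was where p107 alone is lost for 5 (10.9%, against 31.1%) and in pRb+/+ skin for 3 (6.52%, against 23.5%). Both arrays lacking pRb and p107 scored above the other 6 arrays in 20 of the 46 probe sets, against a background of 6.95% of all probe sets. Both pRb+/+ arrays scored below the other 6 in 16, against 10.3%. All 4 pRb-/- arrays lay above all 4 arrays with pRb in 12 probe sets, against 1.97%, and all 4 p107-/- arrays lay above the other 4 in 4 probe sets, against 7.51%. The last share of the members, 8.7%, was near the background. So was that of probe sets with both arrays of skin lacking pRb alone above the other 6, which held for 3 (Dut and both of Uhrf1), against 6.1% of all.

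**Figure D2:**
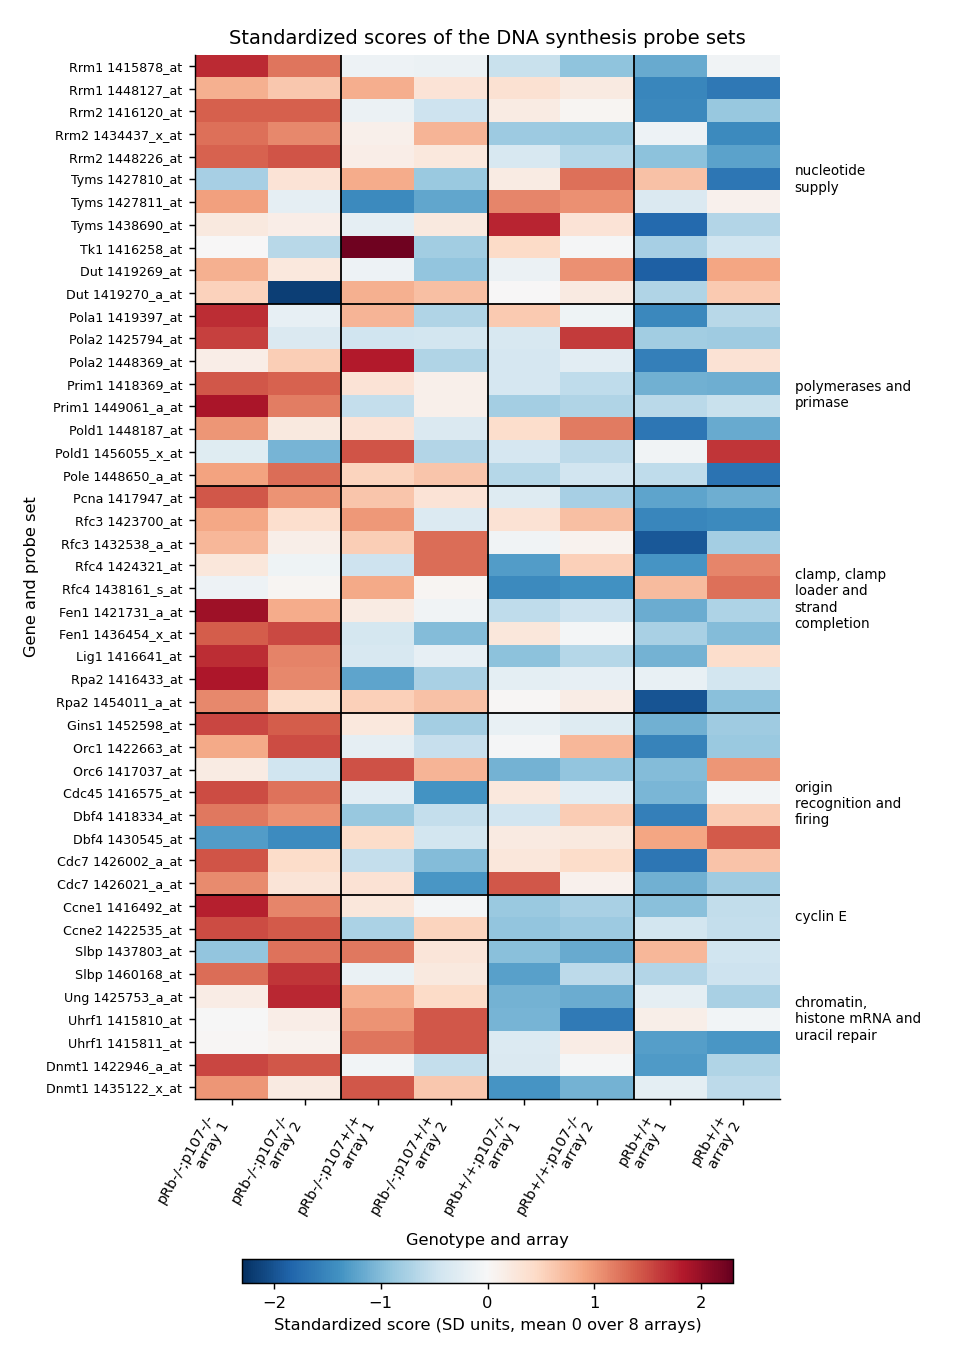
Standardized score of each of the 46 probe sets (rows, grouped by role) on each of the 8 arrays (columns, in 4 genotypes), in SD units with mean 0 over the 8 arrays. The 2 columns at the left, pRb-/-;p107-/- skin, are mostly red, with medians of 1.05 and 0.59, and the 2 columns at the right, pRb+/+ skin, are mostly blue, with medians of -1.07 and -0.63.

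Loss of both pRb and p107 gave the most calls of the comparisons between genotypes. Of the 46 probe sets, 41 were higher than in pRb+/+ skin (89.1%, against 52.3% of all mouse probe sets). The median difference of the 46 was 1.79, against 0.1 over all mouse probe sets. Rrm1, Rrm2, Prim1, Pcna, Fen1 and Dnmt1 rose, by 7 probe sets in all, and none fell (limma linear model without moderation, adjusted p below 0.05 over 22626 probe sets). The members that passed were 15.2% of the 46, where 2.94% of all mouse probe sets passed, 1.41% as higher and 1.54% as lower. Both arrays lacking pRb and p107 lay above both pRb+/+ arrays in 32 of the 46 probe sets, where the background is 28.5%, and below them in 3, where it is 26.9%. The 7 calls depended on the full set of arrays and on the test: 0 were made when any 1 array was left out of the genotypes that lack both proteins, lack p107 alone or are pRb+/+, 4 were made without either array lacking pRb alone (Prim1, Rrm1, Gins1 and Ccne2), 1 with the replicate number as a block and 0 with limma's moderated test or with only the 4 arrays compared.

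Prim1, the catalytic subunit of the primase that starts each new strand, had the smallest p of the members in this comparison. Its probe set 1418369_at scored 1.42 and 1.36 in pRb-/-;p107-/-, 0.32 and 0.11 in pRb-/-;p107+/+, -0.39 and -0.58 in pRb+/+;p107-/- and -1.11 and -1.13 in pRb+/+ skin. The 4 genotypes did not overlap and stood in that order. The difference for loss of both proteins was 2.51 ± 0.11 (SE, limma, adjusted p = 0.0119). This probe set also passed for pRb loss in p107-/- skin (1.88 ± 0.11, adjusted p = 0.0444), for p107 loss in pRb-/- skin (1.18 ± 0.11, adjusted p = 0.0418) and in the F test over the 4 genotypes (adjusted p = 0.0323), which 1.28% of all probe sets passed. The other Prim1 probe set, 1449061_a_at, scored 1.88 and 1.17 in pRb-/-;p107-/-, -0.55 and 0.12 in pRb-/-;p107+/+, -0.78 and -0.7 in pRb+/+;p107-/- and -0.62 and -0.52 in pRb+/+ skin. It was likewise highest where both proteins are lost, but the other 3 genotypes lay close together, and it did not pass (2.1 ± 0.35, adjusted p = 0.0731).

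Among the genes of nucleotide supply, both ribonucleotide reductase subunits rose with loss of both proteins. Ribonucleotide reductase makes the deoxynucleotides, and Rrm2 is the subunit whose amount follows S phase. Rrm2 probe set 1448226_at scored 1.36 and 1.45 in pRb-/-;p107-/-, 0.16 and 0.24 in pRb-/-;p107+/+, -0.37 and -0.66 in pRb+/+;p107-/- and -0.94 and -1.23 in pRb+/+ skin. Its genotypes followed the order seen for Prim1 with no overlap, and it rose by 2.49 ± 0.15 with loss of both proteins (SE, limma, adjusted p = 0.0181) and passed the F test (adjusted p = 0.0405). Probe set 1416120_at of Rrm2 scored 1.37 and 1.37 where both proteins are lost, -0.13 and -0.47 where pRb alone is lost, 0.19 and 0.04 where p107 alone is lost and -1.49 and -0.87 in pRb+/+ skin. It rose by 2.55 ± 0.26 (adjusted p = 0.0377). The remaining Rrm2 probe set, 1434437_x_at, had the same sign at 1.97 ± 0.54 and did not pass (adjusted p = 0.151).

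Rrm1, the large subunit, was measured by 2 probe sets that parted the genotypes differently. Probe set 1448127_at scored 0.81 and 0.62 in pRb-/-;p107-/-, 0.84 and 0.32 in pRb-/-;p107+/+, 0.35 and 0.21 in pRb+/+;p107-/- and -1.5 and -1.65 in pRb+/+ skin. Only the pRb+/+ arrays stood apart, and the rise with loss of both proteins was 2.29 ± 0.21 (SE, limma, adjusted p = 0.0319). The differences for pRb loss with p107 kept, 2.16 ± 0.21, and for p107 loss in pRb+/+ skin, 1.85 ± 0.21, did not pass (adjusted p = 0.111 and 0.0716). Probe set 1415878_at scored 1.72 and 1.23 in pRb-/-;p107-/-, -0.12 and -0.13 in pRb-/-;p107+/+, -0.52 and -0.93 in pRb+/+;p107-/- and -1.16 and -0.08 in pRb+/+ skin. Here the arrays lacking both proteins stood apart instead, and the difference of 2.1 ± 0.44 for loss of both did not pass (limma, adjusted p = 0.103).

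Tyms, which makes dTMP from dUMP, Tk1, the thymidine salvage kinase, and Dut, which removes dUTP, had no probe set that passed in any comparison. Tk1 scored 0.0 and -0.63 in pRb-/-;p107-/-, 2.23 and -0.8 in pRb-/-;p107+/+, 0.44 and -0.02 in pRb+/+;p107-/- and -0.76 and -0.45 in pRb+/+ skin. The highest and the lowest of its 8 scores were the duplicates of 1 genotype. All 3 Tyms probe sets had their highest mean where p107 alone is lost. Tyms 1427810_at was among the members with the largest p in the F test (adjusted p = 0.841), with -0.76 and 0.31 in pRb-/-;p107-/-, 0.85 and -0.86 in pRb-/-;p107+/+, 0.19 and 1.26 in pRb+/+;p107-/- and 0.68 and -1.67 in pRb+/+ skin. In 2 genotypes the duplicates of this probe set lay further apart than any of its genotype means. The 2 Dut probe sets had opposite signs for loss of both proteins, 1.01 ± 1.12 and -0.77 ± 1.06.

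Of the polymerase genes besides Prim1, none passed. Pole, the catalytic subunit of the leading strand polymerase, scored 0.93 and 1.29 in pRb-/-;p107-/-, 0.51 and 0.63 in pRb-/-;p107+/+, -0.66 and -0.44 in pRb+/+;p107-/- and -0.58 and -1.69 in pRb+/+ skin. All 4 pRb-/- arrays lay above all 4 arrays with pRb, and the difference for loss of both was 2.24 ± 0.42 (limma, adjusted p = 0.0859). Pola1, the catalytic subunit of polymerase alpha, differed by 1.82 ± 0.93, and the 2 probe sets of its partner Pola2 by 1.44 ± 0.97 and 0.98 ± 1.13. Pold1, the catalytic subunit of polymerase delta, had probe sets of opposite sign: 1448187_at differed by 2.04 ± 0.49 (adjusted p = 0.125) and 1456055_x_at was lower by a difference of -1.46. A probe set name that ends in _x_at marks probes that may bind other transcripts.

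Pcna, the sliding clamp that holds the polymerases on DNA, scored 1.42 and 1.03 in pRb-/-;p107-/-, 0.63 and 0.31 in pRb-/-;p107+/+, -0.3 and -0.76 in pRb+/+;p107-/- and -1.22 and -1.12 in pRb+/+ skin. The 4 genotypes stood in the order of Prim1 without overlap. Pcna rose by 2.4 ± 0.24 with loss of both proteins (SE, limma, adjusted p = 0.0379), while its differences for pRb loss, 1.64 ± 0.24 with p107 kept and 1.75 ± 0.24 in p107-/- skin, did not pass (adjusted p = 0.156 and 0.137). Fen1, the nuclease that trims flaps between lagging strand fragments, scored 1.4 and 1.51 in pRb-/-;p107-/-, -0.4 and -0.99 in pRb-/-;p107+/+, 0.26 and -0.05 in pRb+/+;p107-/- and -0.75 and -0.99 in pRb+/+ skin by 1436454_x_at. It rose by 2.33 ± 0.25 with loss of both (adjusted p = 0.0406), and the arrays lacking pRb alone overlapped the pRb+/+ arrays. The other Fen1 probe set, 1421731_a_at, differed by nearly the same amount, 2.34 ± 0.43, and did not pass (adjusted p = 0.084). The Fen1 call thus rests on an _x_at probe set, whose probes may bind other transcripts.

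The other genes of this role were alike in direction apart from Rfc4. Lig1, the ligase that seals lagging strand fragments, differed by 1.76 ± 0.57 for loss of both, and the probe sets of Rpa2, a subunit of the protein that coats single-stranded DNA, by 1.77 ± 0.33 and 2.23 ± 0.44. Both probe sets of the clamp loader gene Rfc3 scored lowest on the pRb+/+ arrays, at -1.5 and -1.46 for 1423700_at and -1.95 and -0.79 for 1432538_a_at. Rfc4, another clamp loader subunit, differed by -1.03 ± 0.36 for loss of both by 1438161_s_at, which scored -0.12 and 0.05 in pRb-/-;p107-/-, 0.88 and 0.04 in pRb-/-;p107+/+, -1.46 and -1.39 in pRb+/+;p107-/- and 0.73 and 1.27 in pRb+/+ skin. Its lowest arrays were those lacking p107 alone, with a difference of -2.43 ± 0.36 against pRb+/+ skin that did not pass (limma, adjusted p = 0.0897) but did after quantile normalization. The other Rfc4 probe set, 1424321_at, scored 0.26 and -0.1 in pRb-/-;p107-/-, -0.47 and 1.28 in pRb-/-;p107+/+, -1.29 and 0.54 in pRb+/+;p107-/- and -1.36 and 1.13 in pRb+/+ skin. All genotypes overlapped, and it had the largest p of all members in the F test (adjusted p = 0.957).

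Genes of origin recognition and firing had no call in any comparison between 2 genotypes. Gins1, part of the helicase that opens the origin, scored 1.54 and 1.39 in pRb-/-;p107-/-, 0.25 and -0.79 in pRb-/-;p107+/+, -0.17 and -0.3 in pRb+/+;p107-/- and -1.1 and -0.82 in pRb+/+ skin. Both arrays lacking pRb and p107 were above the other 6, and the difference of 2.43 ± 0.39 for loss of both did not pass (limma, adjusted p = 0.0687) but did with array medians subtracted. Cdc45, its partner in that helicase, differed by 1.93 ± 0.57 and Orc1, of the origin recognition complex, by 2.38 ± 0.44. Orc6 of the same complex differed by only -0.15 ± 0.78. Dbf4, the activator of the origin firing kinase Cdc7, had 2 probe sets of opposite sign. Cdc7 itself differed by 1.44 ± 0.91 and 1.64 ± 0.81 with its 2 probe sets. By Dbf4 1418334_at both arrays lacking pRb and p107, at 1.21 and 1.06, were above the other 6. By 1430545_at they were the lowest, at -1.29 and -1.44 in pRb-/-;p107-/- against 0.9 and 1.41 in pRb+/+ skin. This difference of -2.52 ± 0.36 (adjusted p = 0.0565) was the most negative of the members and passed after quantile normalization and with array medians subtracted.

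Both cyclin E genes, whose products activate the kinase CDK2 at the start of S phase, were highest where both proteins are lost. Ccne1 scored 1.78 and 1.12 in pRb-/-;p107-/-, 0.26 and -0.04 in pRb-/-;p107+/+, -0.86 and -0.74 in pRb+/+;p107-/- and -0.96 and -0.56 in pRb+/+ skin. Ccne2 scored 1.5 and 1.41 in pRb-/-;p107-/-, -0.73 and 0.52 in pRb-/-;p107+/+, -0.9 and -0.83 in pRb+/+;p107-/- and -0.43 and -0.54 in pRb+/+ skin. For each gene the arrays lacking both proteins were above the other 6, and p107 loss in pRb+/+ skin gave differences of only -0.04 for Ccne1 and -0.38 for Ccne2. With loss of both proteins the differences were 2.21 ± 0.29 and 1.94 ± 0.44, and neither passed (limma, adjusted p = 0.0527 and 0.116).

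The genes that act on chromatin and on histone mRNA held both a riser and the main exception. Dnmt1, the maintenance DNA methyltransferase, scored 1.54 and 1.43 in pRb-/-;p107-/-, -0.07 and -0.54 in pRb-/-;p107+/+, -0.33 and -0.02 in pRb+/+;p107-/- and -1.31 and -0.69 in pRb+/+ skin by 1422946_a_at. It rose by 2.48 ± 0.3 with loss of both (SE, limma, adjusted p = 0.0455), a call that was lost after quantile normalization (adjusted p = 0.0504). The other Dnmt1 probe set, 1435122_x_at, differed by 1.03 ± 0.44 without passing. Slbp, which binds the stem-loop of histone mRNAs, scored 1.29 and 1.64 in pRb-/-;p107-/-, -0.16 and 0.22 in pRb-/-;p107+/+, -1.24 and -0.6 in pRb+/+;p107-/- and -0.68 and -0.47 in pRb+/+ skin by 1460168_at, highest where both proteins are lost. Its difference for pRb loss in p107-/- skin was 2.38 ± 0.3 (adjusted p = 0.116). The other Slbp probe set, 1437803_at, differed by only 0.02 ± 0.94 for loss of both. Ung, the uracil glycosylase, was also higher on all 4 pRb-/- arrays than on all 4 arrays with pRb, from 0.17 to 1.74 against -1.14 to -0.21.

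Uhrf1, which brings Dnmt1 to newly copied DNA, was highest where pRb alone is lost by both probe sets. Probe set 1415811_at scored 0.02 and 0.08 in pRb-/-;p107-/-, 1.23 and 1.42 in pRb-/-;p107+/+, -0.32 and 0.17 in pRb+/+;p107-/- and -1.26 and -1.33 in pRb+/+ skin. Probe set 1415810_at scored -0.01 and 0.16 in pRb-/-;p107-/-, 1.04 and 1.43 in pRb-/-;p107+/+, -1.07 and -1.63 in pRb+/+;p107-/- and 0.14 and -0.06 in pRb+/+ skin. In both, p107 loss in pRb-/- skin went with lower scores without overlap. The largest difference of any member for pRb loss with p107 kept was that of 1415811_at, 2.62 ± 0.19 (SE, limma, adjusted p = 0.076). For p107 loss its differences were 1.22 ± 0.19 in pRb+/+ skin and -1.27 ± 0.19 in pRb-/- skin, and the interaction that compares them, -2.49 ± 0.27, did not pass (adjusted p = 0.114).

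**Figure D3:**
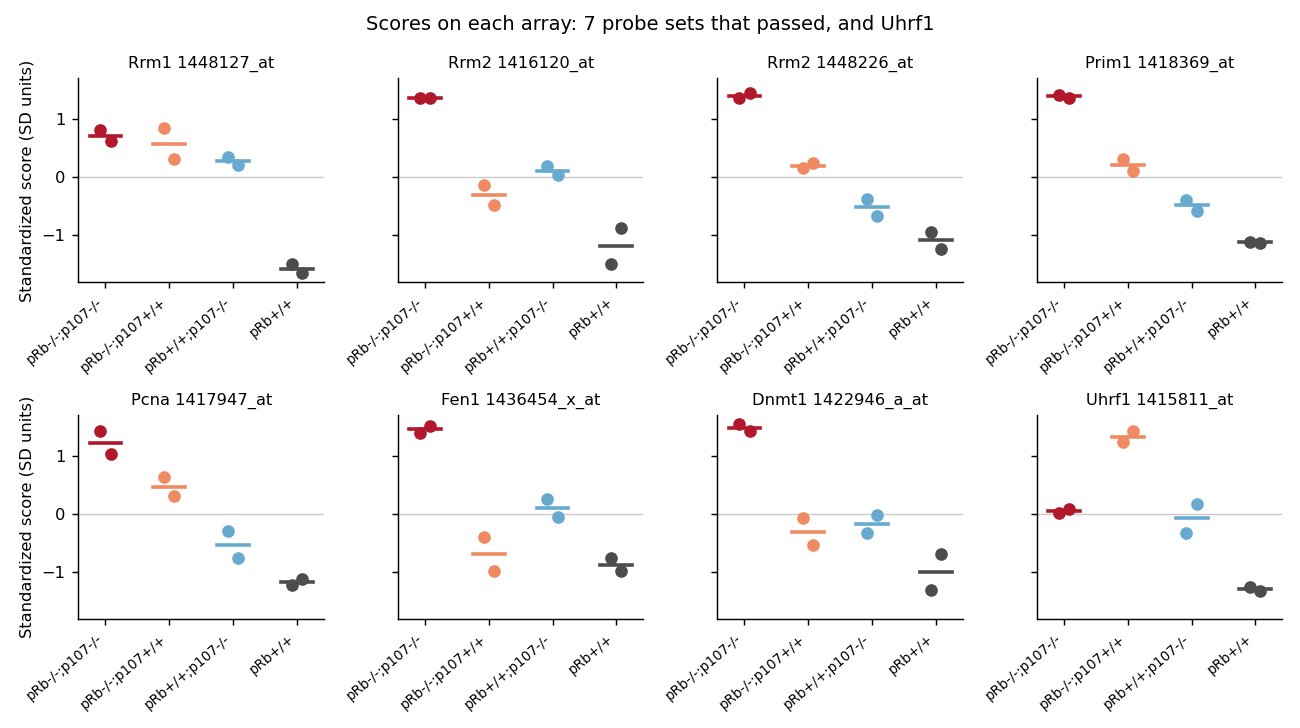
Standardized score (y axis, SD units) on each array for the 7 probe sets that passed for loss of both proteins and for Uhrf1 1415811_at, where points are arrays, bars the mean of 2 arrays, and genotypes run along the x axis. The pRb-/-;p107-/- arrays lie between 0.62 and 1.54 in the 7 probe sets and at 0.02 and 0.08 in Uhrf1, where the pRb-/-;p107+/+ arrays are highest.

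The effect of pRb loss was then set out on either background of p107. In p107-/- skin 37 of the 46 probe sets were higher where pRb is lost too (80.4%, against 37.4% of all mouse probe sets). The median difference of the 46 was 1.15, against -0.33 over all mouse probe sets. Prim1 alone passed (2.17% of members, where 0.256% of all probe sets passed, 0.177% as higher and 0.0796% as lower). With p107 kept, 37 of 46 were again higher than in pRb+/+ skin (80.4%, against 53.7% of all mouse probe sets), with a median of 0.82 against 0.12. No member passed there (0.0% of all probe sets did, by limma without moderation, and 0 members by the moderated test), and 15 of 46 had an unadjusted p below 0.05, against 13.4% of all probe sets. Both pRb-/- arrays lay above both arrays of their comparison in 31 of the 46 probe sets in p107-/- skin, where the background is 17.2%, and in 24 with p107 kept, where it is 23.0%. They lay below them in 3 and in 3, where the backgrounds are 33.7% and 17.4%. Averaged over both backgrounds, 41 of 46 were higher with pRb loss (89.1%, against 46.2% of all mouse probe sets). Of the members 1 passed, Prim1 (1.61 ± 0.07, limma, adjusted p = 0.0369), where 0.181% of all probe sets passed, 0.128% as higher and 0.053% as lower.

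The effect of p107 loss was set out in the same way. In pRb-/- skin 32 of the 46 probe sets were higher where p107 is lost too (69.6%, against 47.3% of all mouse probe sets). The median difference of the 46 was 0.75, against -0.1 over all mouse probe sets. Prim1 passed there by 1 probe set (2.17% of members, where 1.37% of all probe sets passed, 0.548% as higher and 0.822% as lower). With a single call, this share is near the background. Both p107-/- arrays were above both others in 24, where the background is 22.9%, and below them in 5, where it is 28.2%. Besides Prim1, the smallest p belonged to Fen1 1436454_x_at (2.15 ± 0.25, limma, adjusted p = 0.0583) and Rrm2 1448226_at (1.21 ± 0.15, adjusted p = 0.0636). In pRb+/+ skin 30 of 46 were higher with p107 loss (65.2%, near the 58.8% of all mouse probe sets), with a median of 0.58 against 0.35. None passed by limma without moderation or with it, where 0.42% of all probe sets passed without moderation, 0.203% as higher and 0.217% as lower, and 14 had an unadjusted p below 0.05, against 19.4% of all probe sets. Both p107-/- arrays were above both pRb+/+ arrays in 21, where the background is 35.2%. They were below them in 9, a share near the background of 22.1%. The median of all mouse probe sets is itself high in this comparison, and with array medians subtracted the members' median was 0.26. Averaged over both backgrounds, 4 probe sets of Prim1, Rrm2 and Fen1 (8.7% of members) rose with p107 loss, where 3.04% of all probe sets passed, 1.26% as higher and 1.78% as lower. These calls changed with normalization: 5 were made after quantile normalization and 4 with array medians subtracted. Under either, Rfc4 1438161_s_at passed as lower and Rrm2 1448226_at did not pass. Comparisons of p107-/- arrays with the others coincide with the lower poly-A and hybridization controls given above, and cannot be told apart from them.

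**Figure D4:**
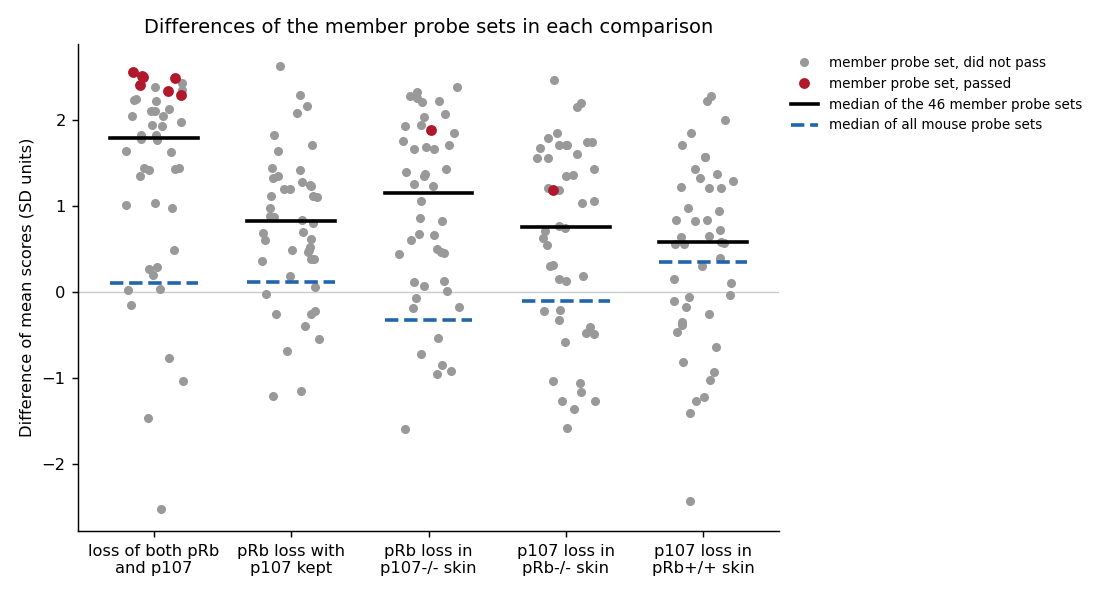
Difference of mean scores (y axis, SD units) for each of the 46 probe sets in the 5 comparisons of 2 genotypes (x axis), where red points passed, black bars are the median of the members and dashed blue bars that of all mouse probe sets. The members' median is 1.79 for loss of both proteins and 0.58 for p107 loss in pRb+/+ skin, where all mouse probe sets have 0.35.

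By role, the difference for pRb loss in p107-/- skin was positive for all 10 probe sets of the clamp, clamp loader and strand completion genes (median 1.37), for all 7 of the chromatin, histone mRNA and uracil repair genes (median 1.66) and for both cyclin E genes (median 2.28). It was split among the nucleotide supply genes, with 6 of 11 positive and a median of 0.07. With p107 kept, the same difference was positive for 7 of 7 chromatin and repair probe sets (median 1.11), 7 of 8 polymerase and primase probe sets (median 1.15) and 4 of 8 origin probe sets (median 0.12). For p107 loss in pRb-/- skin the origin genes had the highest median of the 6 roles, 1.63, and the chromatin and repair genes the lowest, -0.41. No test compared the roles with each other. The comparisons share arrays, so these medians are not independent of each other.

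The difference between the effects of p107 loss on both backgrounds, which is also that between the effects of pRb loss, was tested as an interaction. None of the 46 probe sets passed, as did none of all mouse probe sets (0.0%, limma without moderation), and the moderated test also called 0. An unadjusted p below 0.05 was reached by 11 members (23.9%, against 13.1% of all), with 9 positive and 2 negative. The negative ones were Uhrf1 1415811_at and Rrm1 1448127_at, at -2.49 ± 0.27 and -1.72 ± 0.3. The positive ones with the smallest p were Rpa2 1416433_at at 2.37 ± 0.47 (adjusted p = 0.205) and Slbp 1460168_at at 1.78 ± 0.42 (adjusted p = 0.24). The median interaction over the members was 0.3, against -0.44 over all mouse probe sets.

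Of the 28 genes, 16 had 2 or more probe sets, which allows a check within a gene. Their signs agreed for 12 of the 16 genes with loss of both proteins, for 13 with pRb loss in p107-/- skin, for 10 with pRb loss where p107 was kept, for 8 with p107 loss in pRb-/- skin and for 9 with p107 loss in pRb+/+ skin. Dbf4, Dut, Pold1 and Rfc4 had opposite signs with loss of both. None of the genes called in a comparison had a probe set of the opposite sign there. Where on the transcripts these probes lie is not stated in any source used here.

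**Figure D5:**
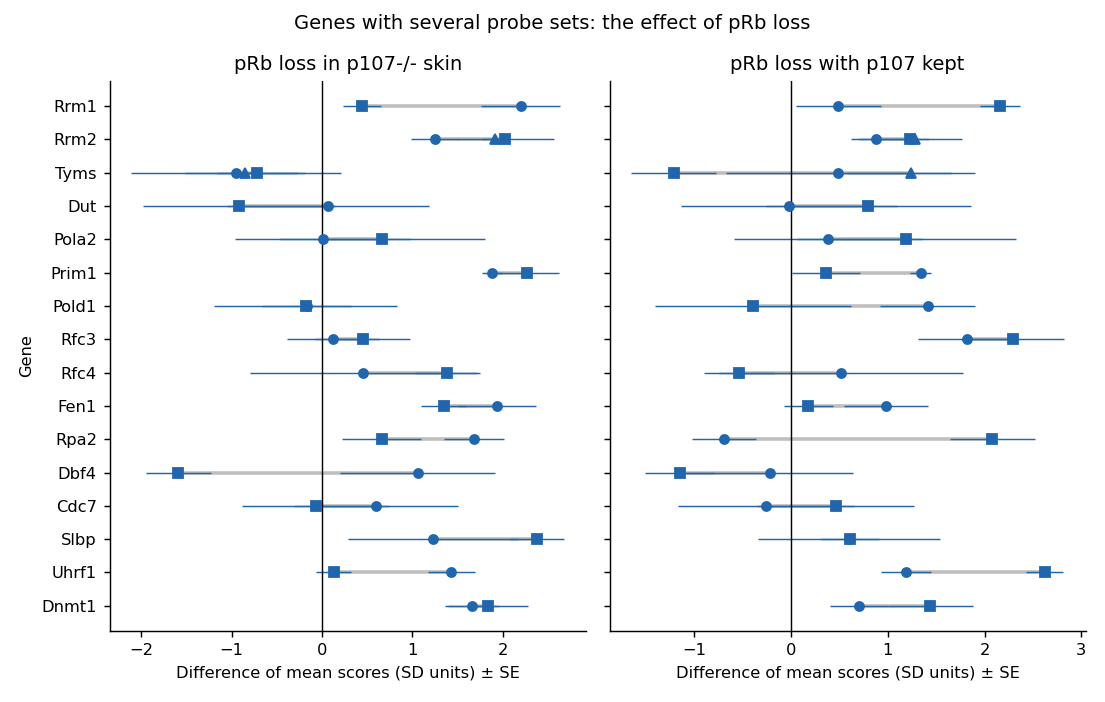
Difference of mean scores (x axis, SD units, with SE bars) for each probe set of the 16 genes with 2 or more probe sets, for pRb loss in p107-/- skin (left) and with p107 kept (right), where symbols stand for probe sets and grey lines join those of a gene. Dbf4, Dut and Cdc7 cross 0 on the left, and Tyms, Dut, Pold1, Rfc4, Rpa2 and Cdc7 on the right.

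Other genes of the cell cycle were set beside the members. Of 23 probe sets of 10 MCM and licensing genes, 21 were higher with loss of both proteins, with a median of 2.02, and Mcm5 (2.6 ± 0.2, limma, adjusted p = 0.0236) and Cdc6 (2.48 ± 0.25, adjusted p = 0.0377) rose. A wider list of replication and nucleotide genes outside the members was split: 34 of 61 probe sets were higher, with a median of 0.49. Its members Wdhd1 (2.5 ± 0.24, adjusted p = 0.0347), a factor of the replication fork, and Dna2 (1.75 ± 0.19, adjusted p = 0.0406), a nuclease, rose, and Cad (-2.48 ± 0.17, adjusted p = 0.0195), which starts pyrimidine synthesis, fell. Among G2 and mitosis genes 16 of 26 probe sets were higher with loss of both (median 0.44). Those that passed were Kif11, a spindle motor, higher at 2.26 ± 0.29, and Ccna2, lower at -1.77 ± 0.12 (limma, adjusted p = 0.05 and 0.0207). The value for Kif11 is below the threshold only before rounding. The genes named as passing in these 3 lists did so by a single probe set each. For p107 loss in pRb-/- skin 9 of 26 G2 and mitosis probe sets were higher, with a median of -0.56, whereas the DNA synthesis genes had a median of 0.75, and the difference between these lists was not tested. Of 12 probe sets of E2F and pocket protein genes, 8 were higher with loss of both (median 0.86), and Rb1 fell. Both E2f1 probe sets were higher, by 2.17 ± 0.48 and 1.56 ± 0.72, and neither passed.

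Markers of cell types moved as well. With loss of both proteins, 8 of 8 suprabasal keratinocyte probe sets were higher (median 1.73), with Krtdap and Lor among them past the threshold. Their array medians were 1.02 and 1.32 in pRb-/-;p107-/- against -0.25 and -1.03 in pRb+/+ skin. Basal keratinocyte markers were higher in 9 of 11 probe sets (median 0.83), where Trp63 rose, with array medians of 0.71 and 0.1 in pRb-/-;p107-/- against -1.17 and -0.12 in pRb+/+ skin. Hair matrix and shaft markers were lower in 7 of 8 (median -2.22), and Krt31, Krt86 and Krt33a fell. They stood at -0.97 and -1.0 in pRb-/-;p107-/- against 1.11 and 1.22 in pRb+/+ skin. Mast cell markers were higher in 7 of 8 (median 1.89), where 4 probe sets of Tpsab1, Cpa3 and Hdc rose and Mcpt4 fell. They stood at 1.1 and 1.27 in pRb-/-;p107-/- against -0.68 and -0.75 in pRb+/+ skin. The part of these shifts in the scores of the DNA synthesis genes was not tested, and which markers are absent cannot be read from standardized scores.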

How the data were processed

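The authors deposited 1 table of standardized scores for 22690 probe sets and 8 arrays. RMA was applied per the submitters' processing notes, with no version named. That each deposited score has mean 0 and SD 1 per probe set was found from the values; whether log or linear values were standardized is not stated in any source used here. Per the labels' protocols, RNA came from 30 mg of skin, and the series text gives 3 pooled animals per array. Whether duplicate arrays are separate pools is not stated, so p-values measure only the spread between these arrays.

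Here, 64 control probe sets were set aside and 22626 tested. A linear model with 1 coefficient per genotype was fitted with limma 3.58.1 in R 4.3.3 (4 residual degrees of freedom), without moderation, which on scores gives the same p as on the values behind them. P-values were adjusted by Benjamini-Hochberg, with a threshold of 0.05. Names came from the platform's gene annotation, in which 20380 probe sets had 1 symbol, 691 several and 1555 none. Genes given with all values were those past the threshold, the 3 with the smallest p in each comparison of 2 genotypes and the 2 with the largest F test p; further members were described to account for the list. Pole, Tk1, Gins1, Ccne1, Ccne2, the second Prim1, Rrm1 and Uhrf1 probe sets and the members named in passing were chosen after their values were seen. The members, the lists of MCM, other replication, G2 and mitosis, E2F and pocket genes and the 9 lists of cell type markers, and the tests were chosen with earlier results of these data known. The fitting code was run on simulated data with independent normal noise and shifts many times the SD of that noise. That run checked the code and does not measure how reliable calls from 2 arrays per genotype are. Alternatives were moderation, quantile normalization, array medians subtracted, a replicate block, only the arrays compared, leaving out each array, and 1 probe set per gene.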

Additional observations from a re-analysis of the deposited data

Results flagged for a closer look

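Control probe sets outside the measured genes scored higher than in pRb+/+ skin in some genotypes, on both arrays. The Gapdh controls exceeded the pRb+/+ mean by 1.5 in pRb-/-;p107-/-, by 2.3 in pRb-/-;p107+/+ and by 2.18 in pRb+/+;p107-/- skin. The poly-A controls exceeded it by 1.01 and the beta-actin controls by 1.59 in pRb-/-;p107+/+ skin. No member passed the interaction test, and groups of 2 arrays are too small for a test of single arrays that stand apart.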

How the results depend on the processing

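The number of called members moved with the processing. Moderation, the replicate block and only the arrays compared change the test alone, so with them the differences stay the same by construction. With limma's moderated test 0 members were called in every comparison. With the replicate number as a block, 1 remained for loss of both (Prim1) and 0 for pRb loss in p107-/- skin, p107 loss in pRb-/- skin, the average pRb and p107 effects and the F test; the labels do not pair the arrays, and the deviations of same-numbered arrays correlated from -0.131 to 0.105. With only the arrays compared, 0 were called for loss of both, for pRb loss in p107-/- skin and for p107 loss in pRb-/- skin. With 1 probe set per gene, 4 were called for loss of both, 2 for the average p107 effect and 1 in the F test, and the median for p107 loss in pRb-/- skin was 1.12; fewer probe sets are counted by construction. After quantile normalization 1 was called for p107 loss in pRb+/+ skin (Rfc4, lower), 0 for the average pRb effect and 1 in the F test, and the medians were 0.14 for p107 loss in pRb+/+ skin and 0.82 for the interaction. With array medians subtracted 0 were called for pRb loss in p107-/- skin and 1 in the F test, and the medians were 1.43 for pRb loss in p107-/- skin, 0.26 for p107 loss in pRb+/+ skin and 0.77 for the interaction. For loss of both, quantile normalization again gave 7 calls, with Dnmt1 lost (adjusted p = 0.0504) and Dbf4 1430545_at gained as lower, and subtracting array medians gave 9, with Gins1 gained as higher and the same Dbf4 probe set as lower. The cause of these changes was not tested.

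Leaving out each of the 8 arrays in turn gave 0 to 4 calls for loss of both and 0 for every other comparison. The median difference then ran from 1.47 to 2.14 for loss of both, from 0.53 to 1.08 for pRb loss with p107 kept, from 1.09 to 1.22 for pRb loss in p107-/- skin, from 0.6 to 1.09 for p107 loss in pRb-/- skin, from 0.37 to 0.83 for p107 loss in pRb+/+ skin and from 0.13 to 0.51 for the interaction. Of 19 differences of single named probe sets, none changed sign under any alternative run. They were chosen for a small p in the same comparison, and some of the alternatives leave a difference unchanged by construction. A change of sign was therefore unlikely beforehand. Scores carry no signal over background, so dim probe sets could not be left out.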

Other observations

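The remaining marker lists gave these values for loss of both proteins: fibroblast markers were lower in 8 of 10 probe sets (median -0.71), adipocyte markers were split with 5 of 10 higher (median -0.45), and Cidea fell, skeletal muscle markers were higher in 2 of 6 (median -0.85), and Tnni1 fell, lymphocyte markers in 3 of 4 (median 0.67) and erythroid markers in 2 of 2 (median 1.81). For pRb loss in p107-/- skin, where the DNA synthesis genes had a median of 1.15, fibroblast markers had -1.75 and suprabasal keratinocyte markers 1.05. For pRb loss with p107 kept, where the DNA synthesis genes had 0.82, adipocyte markers had 1.28, G2 and mitosis genes 1.08, suprabasal keratinocyte markers 0.06 and basal keratinocyte markers -0.16.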
